A study of Mus musculus with 60 samples.

Results

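The 10 genes described here encode the contractile and filament proteins by which smooth muscle is usually recognised: Acta2, Actg2, Myh11, Myl9, Tpm1, Tpm2, Cald1, Cnn1, Tagln and Lmod1. They were picked by gene symbol, from known function and with earlier results of these data known, and all 10 were found among the 24982 genes of each of 2 expression tables. RNA-seq of polyadenylated RNA was made from mouse C3H10T1/2 cells, an established mesenchymal line used as a model of fat cell formation, in 60 samples that form 20 groups of 3. The first table holds WT and Tet1-KO cells and the second holds populations named 23-NC, 23-Tet1 and 23-CATA, each on days 0, 2, 4 and 6 of adipogenic induction. The labels do not spell out these 3 names, do not say whether any population is 1 clone or a pool, and do not say whether libraries of a group came from separate cultures. All populations share the treatment, while days differ in it. Day 0 is before induction, so comparisons with day 0 take in the exposure to the media described next. From day 0 the medium with 10% FBS held rosiglitazone (1 µM), insulin (10 µg/ml), T3 (1 nM), dexamethasone (1 µM) and IBMX (0.5 mM) for 48 h, and insulin (5 µg/ml) after that. Tet1 encodes an enzyme that oxidises 5-methylcytosine in DNA. Tet1 itself averaged 1.01 ± 0.121 FPKM (SD, n = 3) in WT and 0.25 ± 0.01 in Tet1-KO on day 0, and was at or below 0.08 on average in both at later days, so that the label of the later knockout libraries cannot be checked by this gene. In the second table Tet1 averaged 0 to 0.0867 FPKM in 23-NC, 4.19 to 6.85 in 23-Tet1 and 5.98 to 18.9 in 23-CATA.

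In smooth muscle, force comes from myosin filaments that pull on thin filaments of actin. Phosphorylation of the myosin regulatory light chain switches the motor on, while tropomyosin, caldesmon and calponin lie along the thin filament and modulate it. Many of these genes are bound by serum response factor (SRF) at CArG boxes in their promoters, with myocardin or the actin-sensing cofactors Mkl1 and Mkl2. Mesenchymal cells and myofibroblasts use part of the same set in their stress fibres, and mesenchymal cells lose stress fibres as they round up and become fat cells.

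The promoters of Acta2 and Myl9 are shown because these members had the largest differences between Tet1-KO and WT, in opposite directions. Each runs from 250 bases before to 50 bases after the annotated start, 5′ to 3′ along the gene (RefSeq, GRCm38.p6). Myl9 lies on the plus strand at chr2:156775214-156775513, and capitals mark an exact CArG box followed by an inexact one.
Myl9: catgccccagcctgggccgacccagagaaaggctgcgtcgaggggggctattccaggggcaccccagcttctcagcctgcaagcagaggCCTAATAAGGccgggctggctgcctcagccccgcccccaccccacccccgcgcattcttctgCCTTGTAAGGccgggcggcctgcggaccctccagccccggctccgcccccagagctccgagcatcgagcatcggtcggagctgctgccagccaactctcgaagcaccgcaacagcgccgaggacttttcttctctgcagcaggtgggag
Acta2 lies on the minus strand at chr19:34255324-34255623, and capitals mark its 2 inexact CArG boxes.
Acta2: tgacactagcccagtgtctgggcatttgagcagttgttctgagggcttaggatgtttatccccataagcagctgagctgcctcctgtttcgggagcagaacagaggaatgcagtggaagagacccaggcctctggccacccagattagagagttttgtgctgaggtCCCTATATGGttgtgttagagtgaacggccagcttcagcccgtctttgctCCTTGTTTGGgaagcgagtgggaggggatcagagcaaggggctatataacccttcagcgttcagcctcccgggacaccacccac

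An inexact box is a CArG box with 1 base of its A/T core replaced by G or C. Both strands (for TATAAA the gene's strand alone) were searched in the 8 promoters that matched 7 of the members, Cald1 having 2. An exact CArG box was found in 1 of the 8, against 1.63% of 32851 mouse promoters of this length. Inexact boxes were found in 2 of the 8, against 8.50% of all promoters. The muscle CAT motif CATTCC was found in 4 of the 8, those of Acta2, Tpm1, Lmod1 and 1 of the 2 of Cald1, against 14.7% of all. TATAAA was found in 1 of the 8, the other promoter of Cald1, against 8.32% of all. A match describes these letters only and was not tied to any binding measurement.

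Values are FPKM, fragments per kilobase of transcript and per 1 M mapped fragments, so that levels can be set side by side between genes. Cnn1 and Myh11, the calponin and the myosin heavy chain by which differentiated smooth muscle is told apart, were near 0. Cnn1 (chr9:22099216-22109630) did not exceed 0.34 FPKM in the first table or 0.15 in the second, and was listed at 0 in 4 of 24 and 16 of 36 libraries. Myh11 (chr16:14194535-14291372) did not exceed 0.7 FPKM in the first table or 1.27 in the second. Myocd, the gene of myocardin, stayed under 1 FPKM in every library. The label of the list is thus one of gene function, and these cells did not carry the defining pair of smooth muscle markers. The RNA measured was instead that of Acta2, Tpm1, Tpm2 and Cald1, which together held 94.8% to 99.6% of the summed FPKM of the 10 genes in each library.

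**Figure D1:**
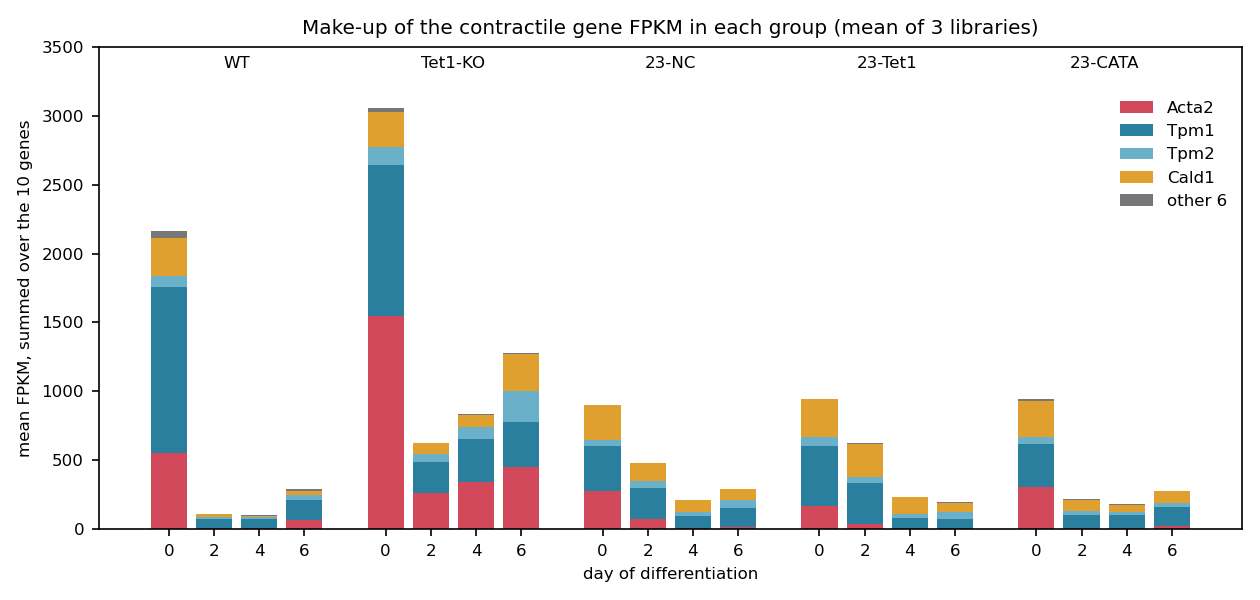
Stacked bars give the mean FPKM of Acta2, Tpm1, Tpm2, Cald1 and the other 6 genes together in each of the 20 groups (n = 3 each), on a linear axis from 0, with the 2 tables kept apart. The summed level falls from 2162 to 101 FPKM between days 0 and 4 in WT and from 3060 to 838 in Tet1-KO.

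The sum over the 10 genes averaged 2162, 113, 101 and 291 FPKM in WT on days 0, 2, 4 and 6, and 3060, 628, 838 and 1282 FPKM in Tet1-KO. In the second table it averaged 904, 483, 213 and 292 FPKM in 23-NC, 948, 626, 233 and 195 in 23-Tet1, and 948, 218, 181 and 279 in 23-CATA. Acta2 supplied 25.7% of that sum in WT on day 0 and 6.07% on day 2, against 50.5% and 40.2% in Tet1-KO. Its share in 23-Tet1 went from 17.8% on day 0 to 0.369% on day 6, while in 23-CATA it was 32.5% on day 0, 2.90% on day 2 and 8.59% on day 6.

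Differences below are log2 differences of FPKM + 1, given with their standard error relative to the median gene of the same comparison. That median itself moved by -0.52 to 0.17 between groups of the first table and by -0.34 to 0.11 in the second. Adjusted p-values come from limma with Benjamini-Hochberg adjustment over all genes tested, and a gene is called where the adjusted p is under 0.05. Testing required 1 FPKM in at least 3 libraries, which 8 members passed in the first table and 9 in the second. Cnn1 passed in neither, and Myh11 in the second only. In the second table Myh11 passed only through 23-Tet1 on day 6, and Myl9 and Actg2 only through 23-CATA on day 0. Where they are called in a comparison with that group they had to differ to be tested, so those calls are counted below but their values are given as a description, with no p. In RNA pooled over many cells, fewer cells that express a gene and less RNA per cell cannot be told apart. The spacing of low FPKM values put depth at 12.3 to 19.1 M fragments in 59 libraries. For the remaining one, Tet1-KO day 6 replicate 2, no spacing could be read, and it stands apart, with 11805 genes above 0 against 13837 to 14954 in the other 23 of its table.

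**Figure D2:**
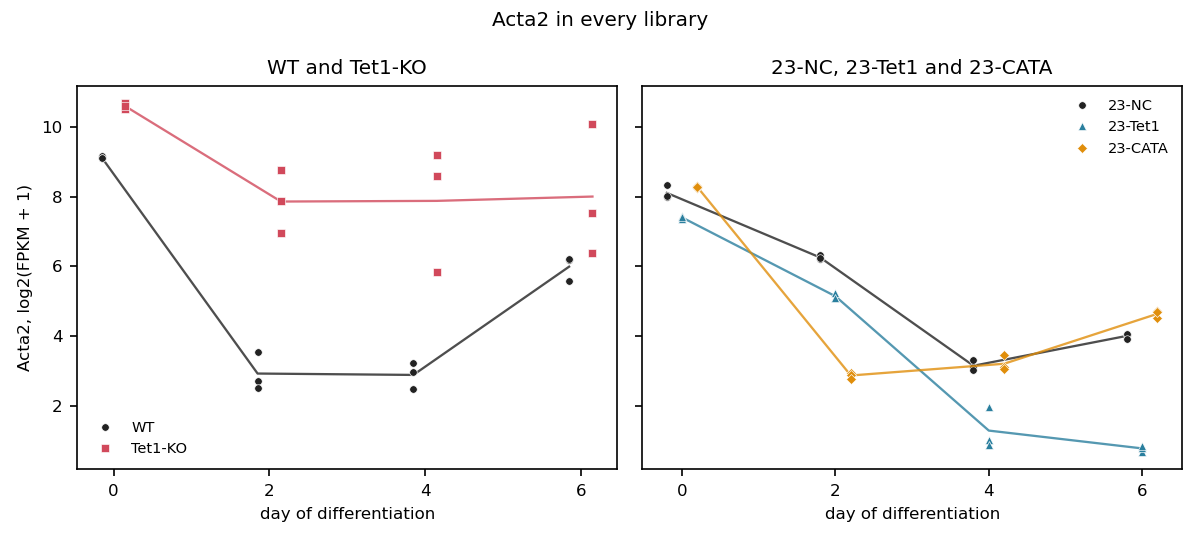
Acta2 in every library as log2(FPKM + 1) against day, WT and Tet1-KO in the left panel and 23-NC, 23-Tet1 and 23-CATA in the right; points are libraries and lines join the group means of the log values (n = 3). All Tet1-KO libraries lie above all WT libraries at each day, and 23-Tet1 lies lowest on days 4 and 6.

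In WT cells most of the tested members were lower after induction. On days 2 and 4, 7 of 8 were called lower than on day 0 and none higher, where 62.1% and 67.3% of all genes tested were called in either direction and 43.2% and 49.2% lower. On day 6, 5 of 8 were called lower, with 56.6% of all genes called and 37.4% lower. Of all calls, 30.4%, 26.9% and 33.9% were of higher genes on the 3 days, and 49%, 50% and 51.2% after median-ratio scaling of the libraries. The median relative difference of the members was -3.19, -3.36 and -1.66 at the 3 days.

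Acta2 (chr19:34241090-34255590, minus strand), the alpha actin of smooth muscle and myofibroblasts, stood at 570.0, 547 and 547.5 FPKM in the 3 WT libraries on day 0. It stood at 5.59, 4.67 and 10.8 on day 2, at 6.81, 4.57 and 8.32 on day 4, and at 72.0, 46.8 and 72.8 on day 6. The day 6 libraries lay between the others, above all of days 2 and 4 and below all of day 0. Acta2 fell by 5.80 log2 units to day 2 (adjusted p = 1.18e-06) and was still lower on day 6 (log2 difference -2.84, adjusted p = 0.00166).

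Tpm1 (chr9:67022590-67049406), a tropomyosin made in most cells as several isoforms, went from 1231, 1201 and 1179 FPKM on day 0 to 64.8, 55.2 and 72.9 on day 2. Cald1 (chr6:34598500-34775473), caldesmon, went from 257, 284 and 279 FPKM to 20.5, 15.7 and 22.4. Neither gene's groups overlapped, and the differences were -3.82 and -3.36. Tpm2 (chr4:43514711-43523765), the tropomyosin typical of muscle and stress fibres, was at 83.7, 80.6 and 77.6 FPKM on day 0 and 14.99, 13.8 and 14.2 on day 4, a difference of -1.90. By day 6 Tpm2 stood at 45.2, 42.2 and 37.6 FPKM and was no longer called (-0.65, adjusted p = 0.148).

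Most of the less abundant members were lower as well. Myl9 (chr2:156775420-156781658), the regulatory light chain of smooth muscle and non-muscle myosin, was at 34.3, 27.6 and 27 FPKM on day 0, at 0.64, 0.4 and 1.33 on day 2, and back at 10.0, 5.24 and 9.12 on day 6. Actg2 (chr6:83512905-83536265), the gamma actin of visceral smooth muscle, was at 15.02, 14.9 and 15.1 FPKM on day 0 and at 0.45, 0.63 and 0.44 on day 2. Lmod1 (chr1:135324807-135368065), a leiomodin that nucleates actin filaments, was at 2.5, 3.1 and 3.38 FPKM on day 0 and at 0.22, 0.16 and 0.17 on day 2. All 3 genes were called lower on days 2 and 4. Tagln (chr9:45929619-45936058), the actin-binding protein transgelin or SM22, was low throughout, between 0.32 and 1.96 FPKM in WT, and was called at no day.

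Myh11, which was not tested here, was at 0.13, 0.13 and 0.12 FPKM on day 0 and at 0.43, 0.6 and 0.7 on day 4. These groups did not overlap, but every value is below 1 FPKM. Reads of Tagln, Cald1 and Lmod1 may include those of genes that overlap them on the opposite strand, since the sources used here do not say whether strand was used in counting. The overlapping neighbour of longest shared length is Gm14547 for Cald1, over 8169 bases, and Gm48529 for Tagln, over 3627 bases. These lengths are of whole gene spans, introns included, and the overlap of exons was not measured.

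**Figure D3:**
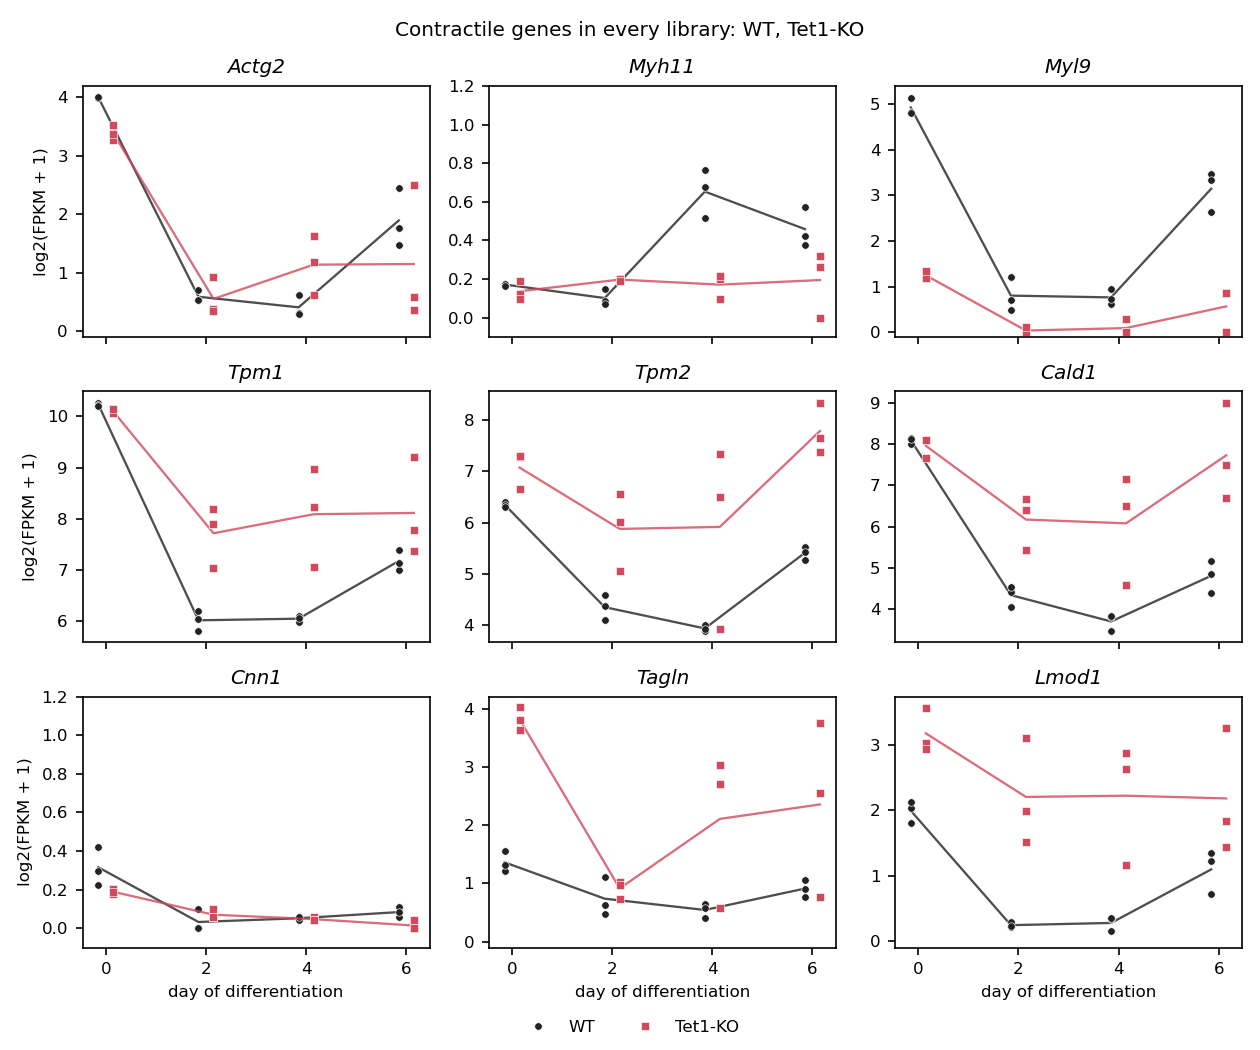
Each panel shows 1 of the other 9 genes in WT and Tet1-KO as log2(FPKM + 1) against day, with points for libraries and lines for the mean of the log values (n = 3). Myl9 is lower in every Tet1-KO library than in every WT library of the same day, while Tpm2 is highest in Tet1-KO on day 6.

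Tet1-KO was then compared with WT on each day. On day 0, 1 of the 8 tested members was called higher and 1 lower, and 16.8% of all genes tested were called. On day 2, 5 were called higher and 1 lower against 22.9% of all genes, and on day 4, 5 were called higher and none lower against 16%. On day 6, 4 were called higher and 1 lower against 45.4%. Calls of higher genes took in 5.83%, 16.2%, 9.79% and 15.7% of all genes on days 0, 2, 4 and 6, and calls of lower genes 11%, 6.76%, 6.22% and 29.7%. Higher genes thus made up 34.7%, 70.5%, 61.1% and 34.6% of all calls, against 48.4%, 48.9%, 46.1% and 45.4% after median-ratio scaling. On days 2 and 4 the share of members called higher, 5 of 8, was well above the share of all genes called higher. The median relative difference of the members was 0.38, 1.45, 1.87 and 1.46 on days 0, 2, 4 and 6, and the median absolute difference of all genes was 0.325, 0.346, 0.312 and 0.525.

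Acta2 stood at 1632, 1460 and 1547 FPKM in Tet1-KO on day 0, above every WT library, but with the spread shared over the table this was not called (log2 difference 1.57 ± 0.76, adjusted p = 0.192). Fitted on the 6 libraries of that day alone, the adjusted p was 0.000107. On day 2 Acta2 stood at 432, 122 and 234 FPKM in Tet1-KO, and on day 4 at 387, 56.1 and 586. The knockout libraries were far apart, yet the lowest lay above the highest WT library on both days. The differences were 4.77 ± 0.76 on day 2 (adjusted p = 0.000403) and 4.90 ± 0.76 on day 4 (adjusted p = 0.000304). On day 6 the values were 1089, 186 and 81.9 FPKM, and the lowest of them was close to the 72.8 of the highest WT library. The call on day 6 (2.21 ± 0.76, adjusted p = 0.0366) was lost without Tet1-KO day 6 replicate 1, which holds the 1089 FPKM (adjusted p = 0.248), and when only the groups compared were fitted (adjusted p = 0.176).

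Actg2, the other smooth muscle actin, was not called on any day. On day 0 it stood at 10.5, 8.66 and 9.31 FPKM in Tet1-KO, below all 3 WT libraries (-0.53 ± 0.38, adjusted p = 0.292). On days 2, 4 and 6 the groups overlapped.

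Myl9 was the member with the strongest difference in the opposite direction. On day 0 it stood at 1.32, 1.3 and 1.53 FPKM in Tet1-KO against 27 or more in WT, a difference of -3.59 ± 0.23 (adjusted p = 1.02e-09). On day 2 the knockout libraries were listed at 0, 0 and 0.09 FPKM (-0.93 ± 0.23, adjusted p = 0.024). On day 6 they were at 0.81, 0 and 0.81 against 5.24 to 10.0 in WT (-2.38 ± 0.23, adjusted p = 3.25e-07). Every Tet1-KO library was below every WT library on all 4 days, including day 4, when Myl9 was at most 0.94 FPKM in either group and was not called (adjusted p = 0.0556). Myh11 stayed between 0 and 0.25 FPKM in Tet1-KO.

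None of the thin-filament regulators was called on day 0, and all 3 tested were called higher on days 2 and 4. Tpm1 was at 1073, 1074 and 1135 FPKM in Tet1-KO on day 0 (-0.05 ± 0.41, adjusted p = 0.86) and at 293, 132 and 239 on day 2, above all WT libraries (1.53 ± 0.41, adjusted p = 0.00727). On day 4 it was at 300.9, 132 and 505 FPKM (1.95 ± 0.41, adjusted p = 0.00308), and on day 6 at 589, 164 and 219, where it overlapped WT and was not called (adjusted p = 0.0689).

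Cald1 was at 101, 42.5 and 83.9 FPKM in Tet1-KO on day 2 (1.66 ± 0.52, adjusted p = 0.0177) and at 89.4, 23.2 and 142 on day 4 (2.29 ± 0.52, adjusted p = 0.00546). On day 6 it was at 178, 513 and 103 FPKM against 20.1 to 35.3 in WT (3.11 ± 0.52, adjusted p = 0.000261). The 513 FPKM belong to the library that stands apart, and the other 2 were also above all WT libraries. Tpm2 was at 63.8, 32.3 and 92.8 FPKM on day 2 (1.36 ± 0.54, adjusted p = 0.0489) and at 165, 321 and 198 on day 6 (2.57 ± 0.54, adjusted p = 0.00185), above all WT libraries on both days. On day 4 Tpm2 was called as well (1.89 ± 0.54, adjusted p = 0.0188), but its libraries at 88.9, 14.2 and 160 FPKM overlapped WT.

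Tagln stood at 12.9, 15.3 and 11.4 FPKM in Tet1-KO on day 0 against 1.32, 1.48 and 1.96 in WT (2.54 ± 0.55, adjusted p = 0.00482). On day 2 it had dropped to 1.04, 0.67 and 0.97 FPKM and overlapped WT. On day 4 it was at 7.16, 0.5 and 5.55 FPKM (1.47 ± 0.55, adjusted p = 0.0572), and on day 6 at 12.5, 4.87 and 0.7 (1.64 ± 0.55, adjusted p = 0.0378). The lowest knockout library fell inside the WT range on day 4 and just below it on day 6 (0.71 to 1.09 FPKM in WT). Lmod1 was called higher on day 2, at 7.59, 1.85 and 2.97 FPKM (1.79 ± 0.44, adjusted p = 0.00478), and on day 4, at 5.17, 1.23 and 6.35 (1.85 ± 0.44, adjusted p = 0.00649). No Lmod1 library of Tet1-KO overlapped WT on any day, although days 0 and 6 missed the threshold (adjusted p = 0.0715 and 0.0508).

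**Figure D4:**
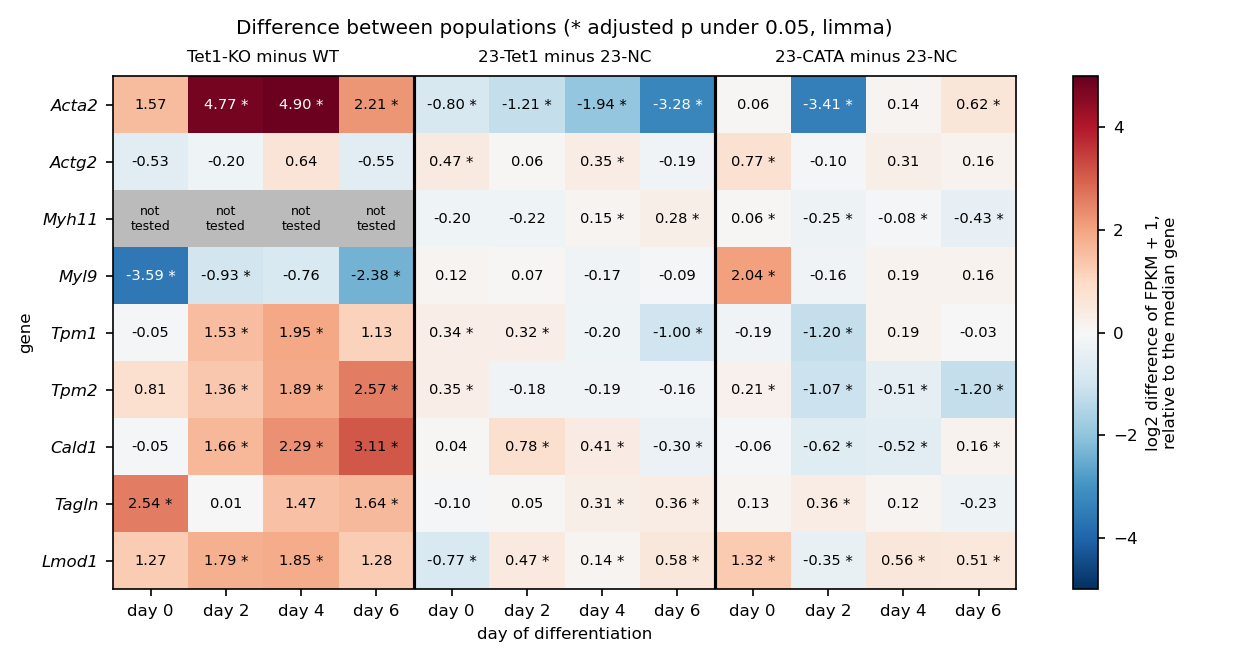
Heat map of log2 differences relative to the median gene for each member but Cnn1, in Tet1-KO against WT, 23-Tet1 against 23-NC and 23-CATA against 23-NC on days 0, 2, 4 and 6. A star marks an adjusted p under 0.05 and empty cells were not tested. The stars of Myh11 in 23-Tet1 on day 6 and of Myl9 and Actg2 in 23-CATA on day 0 are description only. These genes passed the filter only through those groups. Acta2 is highest in Tet1-KO on day 4 (4.90) and lowest in 23-CATA on day 2 (-3.41) and 23-Tet1 on day 6 (-3.28); with quantile normalisation the sign of Myh11 on day 0 and Cald1 on day 6 in 23-CATA turned.

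The knockout libraries of days 2 and 4 differed in other genes as well. On day 2 the 18 adipocyte markers summed to 9233, 51575 and 11634 FPKM in replicates 1, 2 and 3 of Tet1-KO, and on day 4 to 44561, 95335 and 25501. Replicate 2 had the highest adipocyte sum and the lowest Acta2, Tpm1, Tpm2, Cald1 and Lmod1 on both days. In WT the sum ran from 55276 to 72236 FPKM on day 2 and from 102270 to 120235 on day 4. Against WT, 6.76%, 6.22% and 29.7% of all genes were called lower in Tet1-KO on days 2, 4 and 6, and 16.2%, 9.79% and 15.7% higher. Of the 18 adipocyte markers 11, 7 and 15 were called lower in Tet1-KO on days 2, 4 and 6 and none higher. Of 8 tested mesenchymal markers 7, 7 and 3 were called higher and none lower. Their part in the results for the contractile genes was not tested.

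Leaving out single libraries moved the number of members called on day 2 from 6 to 2 without Tet1-KO day 2 replicate 1 and to 3 without replicate 3. On day 4 it moved from 5 to 2 without Tet1-KO day 4 replicate 3, and on day 6 from 5 to 3 without any 1 of the 3 WT libraries. Without Tet1-KO day 6 replicate 2, the library that stands apart, 6 members were called on day 6. Acta2, Cald1, Tpm2 and Myl9 passed again (adjusted p = 0.0408, 0.00135, 0.00906 and 9.68e-07). Tagln no longer passed (adjusted p = 0.0861), while Tpm1 and Lmod1 did (adjusted p = 0.0169 and 0.0469). With replicate 2 of Tet1-KO days 2, 4 and 6 left out, 5 members were called on day 0, including Acta2 (adjusted p = 0.0479), and 8 on day 4. The shares of all genes called in these fits are not given here.

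Within Tet1-KO the fall after day 0 was called for 6 of 8 members on day 2, 6 on day 4 and 5 on day 6, with 22.5%, 46.8% and 45.6% of all genes called, 14.8%, 34.7% and 36% of all genes called lower, and no member called higher. Higher genes made up 34.3%, 25.7% and 20.9% of all calls, and 47.5%, 48.9% and 50.1% after median-ratio scaling. The medians of the members were -1.98, -1.50 and -0.84, against -3.19, -3.36 and -1.66 in WT. Acta2 fell by 2.63, 2.42 and 2.21 at the 3 days (adjusted p = 0.0139, 0.00636 and 0.0105). Tagln, which was not called in WT, fell by 2.80, 1.42 and 1.08 (adjusted p on day 6 = 0.0364). Cald1 was lower on days 2 and 4 (-1.69 and -1.58) and was not called on day 6 (0.15, adjusted p = 0.733). Tpm2 and Lmod1 were called at no day. The count on day 4 was 3 without Tet1-KO day 4 replicate 2. On day 6 it was 3 without Tet1-KO day 0 replicate 1 or 3 or Tet1-KO day 6 replicate 2 or 3, 2 with library weights and 0 with the compared groups alone. The day 6 call of Acta2 was lost under both of the latter settings (adjusted p = 0.0692 and 0.124). Shares of all genes called in these alternative fits are not given here.

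**Figure D5:**
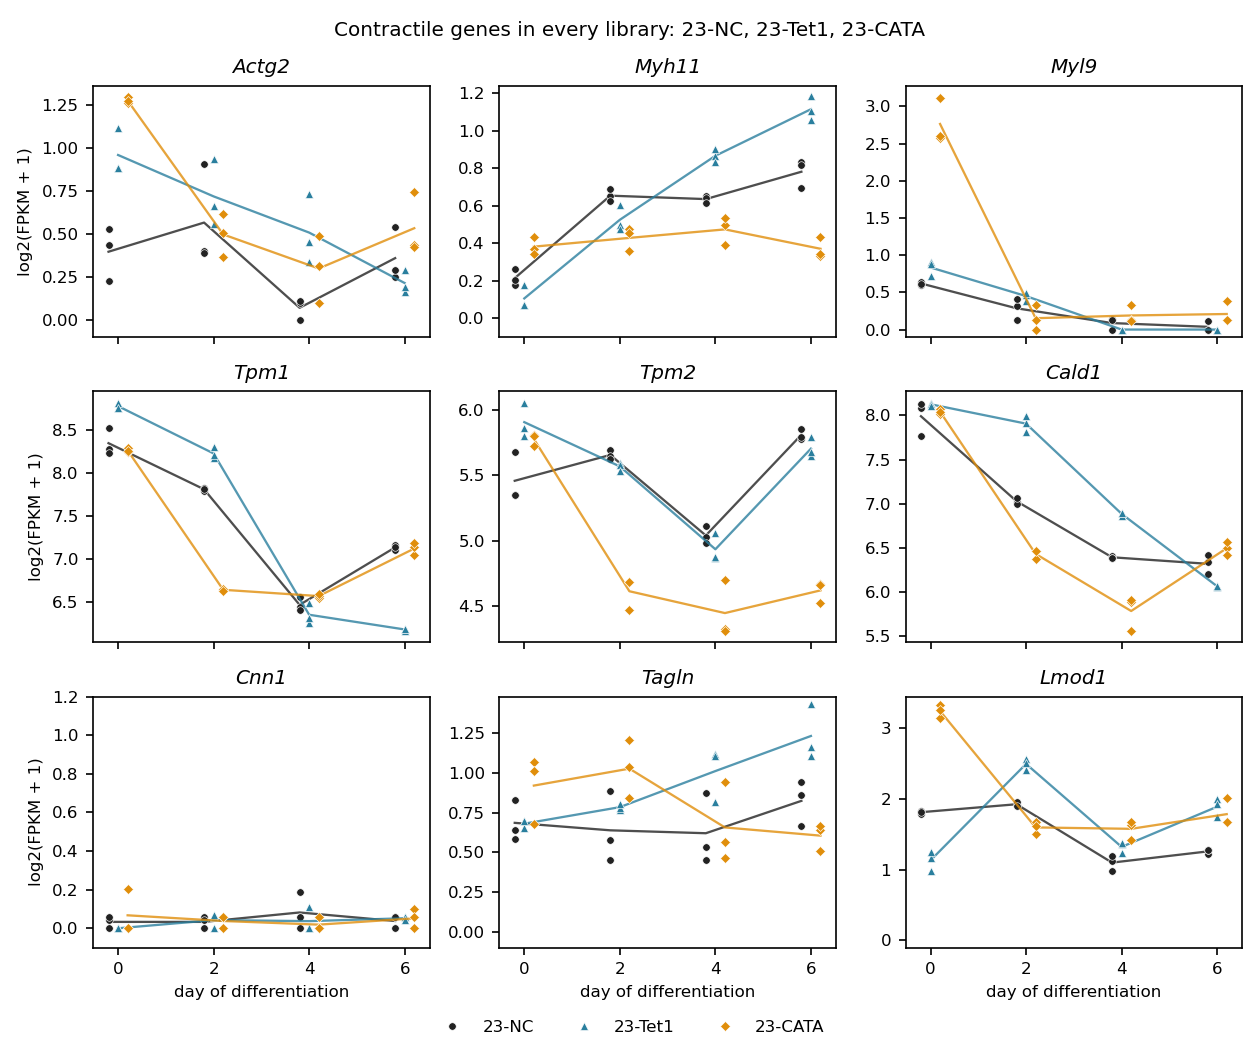
Each panel shows 1 of the other 9 genes in 23-NC, 23-Tet1 and 23-CATA as log2(FPKM + 1) against day, with points for libraries and lines for the mean of the log values (n = 3). Lmod1 and Myl9 are highest in 23-CATA on day 0, Lmod1 peaks on day 2 in 23-Tet1, and Tpm2 is lowest in 23-CATA from day 2 on.

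In the second table the replicates were close, and calls covered most genes. In 23-NC, 5 of 9 tested members were called on day 2 against day 0, 8 on day 4 and 7 on day 6, with 59.5%, 72.4% and 72.2% of all genes called. Those called lower numbered 4, 7 and 5, where 35.1%, 42.1% and 40.5% of all genes were called lower. In 23-Tet1, 7, 8 and 9 were called, 5, 6 and 6 of them lower, with 64.4%, 71.5% and 77.6% of all genes called and 35.6%, 40.6% and 44.7% lower. In 23-CATA, 7, 7 and 8 were called, all lower, with 72.3%, 81.5% and 77% of all genes called and 45.2%, 55.6% and 49.7% lower. In 23-CATA higher genes made up 37.4%, 31.7% and 35.5% of all calls, and 48.8%, 49.8% and 49.7% after median-ratio scaling. At background shares this high, counts of 5 to 9 members say little about them.

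The course of Acta2 differed between the 3 populations. In 23-NC it stood at 319, 253 and 257 FPKM on day 0, 78.5, 73.8 and 73.9 on day 2, 7.67, 8.87 and 7.19 on day 4, and 15.5, 15.6 and 14.2 on day 6. In 23-Tet1 it stood at 162, 174 and 169 on day 0, 33.4, 36.7 and 33.0 on day 2, 1.04, 2.93 and 0.83 on day 4, and 0.61, 0.74 and 0.81 on day 6. In 23-CATA it stood at 316, 301.2 and 307 on day 0, 6.74, 6.39 and 5.85 on day 2, 7.69, 7.29 and 9.96 on day 4, and 21.8, 25.4 and 24.8 on day 6. 23-Tet1 thus ended lowest, with no library over 1 FPKM on day 6, and 23-CATA was lowest on day 2 among its own days and was the highest of the 3 on day 6. From day 0 to day 6 Acta2 fell by 6.50 in 23-Tet1 (adjusted p = 1.66e-25), by 4.03 in 23-NC (adjusted p = 6.54e-20) and by 3.41 in 23-CATA (adjusted p = 1.19e-18).

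Against 23-NC, 23-Tet1 had 3 of 9 members called higher and 2 lower on day 0, 3 and 1 on day 2, 5 and 1 on day 4, and 3 and 3 on day 6. The shares of all genes called were 61.3%, 63.9%, 56.9% and 65%, made up of 37.8%, 38.7%, 35% and 36% higher and 23.5%, 25.2%, 21.9% and 29% lower. Higher genes made up 61.6%, 60.6% and 61.5% of all calls on days 0, 2 and 4, and 51.2%, 50.3% and 47.9% after median-ratio scaling. On day 4, 5 of 9 members were called higher where 35% of all genes were, which at this share says little about them. With quantile normalisation the count called in either direction on that day was 3 in place of 6, and the share of all genes is not given. Myh11 is among the 3 called higher on day 6. The medians of the members were 0.04, 0.06, 0.14 and -0.16, and single members moved much further. 23-Tet1 and 23-CATA are both compared with the same 23-NC libraries.

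Acta2 was lower in 23-Tet1 at every day, by log2 differences of -0.80, -1.21, -1.94 and -3.28 (SE 0.16 each), and no library overlapped 23-NC. The adjusted p-values were 0.000285, 3.94e-07, 2.5e-11 and 6.76e-17. Tpm1 was higher on day 0, at 432, 450 and 432 FPKM against 368, 309 and 300 in 23-NC (0.34 ± 0.06, adjusted p = 5.02e-07), and lower on day 6, at 70.6, 71.7 and 72.0 against 137, 142 and 140. On day 6 the difference of Tpm1 was -1.005 ± 0.06 (adjusted p = 4.22e-14). Cald1 was higher on day 2, at 241, 223 and 254 FPKM against 129, 127 and 133 (0.78 ± 0.08, adjusted p = 4.96e-11), and lower on day 6, at 66.0, 65.6 and 66.4 against 80.1, 72.8 and 84.4 (-0.30 ± 0.08, adjusted p = 0.00506). Both thin-filament genes thus changed side within the course. Tpm2 was called on day 0 only (0.35 ± 0.09, adjusted p = 8.02e-05).

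Lmod1 was lower in 23-Tet1 than in 23-NC on day 0 and higher at later days. On day 0 it was at 1.23, 1.38 and 0.97 FPKM against 2.43, 2.55 and 2.52 in 23-NC (-0.77 ± 0.09, adjusted p = 1.78e-07). On day 2 it was at 4.31, 4.88 and 4.65 FPKM against 2.76, 2.88 and 2.71 (0.47 ± 0.09, adjusted p = 3.05e-06), and on day 6 at 2.34, 2.98 and 2.79 against 1.33, 1.42 and 1.41 (0.58 ± 0.09, adjusted p = 5.59e-07). From day 0 to day 2 Lmod1 rose by 1.40 in 23-Tet1 (adjusted p = 5.62e-14).

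Myh11 and Tagln were low in both populations and had their highest levels in 23-Tet1 on day 6. Myh11 was at 1.27, 1.15 and 1.08 FPKM on day 6 against 0.62, 0.78 and 0.76 in 23-NC (0.28). Tagln was at 1.7, 1.24 and 1.15 FPKM against 0.82, 0.92 and 0.59 (0.36 ± 0.13, adjusted p = 0.00925). Neither pair of groups overlapped. Myl9 was listed at 0 in all 3 libraries of 23-Tet1 on days 4 and 6, and at 0.33 FPKM or less in 23-NC from day 2 on. Actg2 was called higher in 23-Tet1 on day 0 (1.16, 0.84 and 0.84 FPKM against 0.44, 0.17 and 0.35) and on day 4, and was below 1 FPKM in all 18 libraries of both populations on days 2, 4 and 6.

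In 23-CATA against 23-NC, 5 of 9 members were called higher and none lower on day 0, 1 and 6 on day 2, 1 and 3 on day 4, and 3 and 2 on day 6. The shares of all genes called were 43.3%, 65%, 68.7% and 74.4%, made up of 31.6%, 34.3%, 28.9% and 38% higher and 11.7%, 30.7%, 39.9% and 36.4% lower. Higher genes made up 73% of all calls on day 0 and 42% on day 4, and 53.2% and 53.1% after median-ratio scaling. The medians of the members were 0.13, -0.35, 0.14 and 0.16. Myl9 and Actg2 are among the 5 of day 0. On that day 3 members were called when the 2 groups were fitted alone, a fit whose share of all genes called is not given here. Myl9 stood at 4.96, 7.68 and 5.05 FPKM against 0.56, 0.52 and 0.53 in 23-NC (2.04). Lmod1 stood at 8.98, 7.75 and 8.52 FPKM against 2.43 to 2.55 (1.32 ± 0.09, adjusted p = 7.18e-14). Actg2 was at 1.39, 1.45 and 1.41 FPKM against at most 0.44 (0.77). Acta2 overlapped 23-NC at that day and was not called (0.06 ± 0.16, adjusted p = 0.418), and the same held for Tpm1 and Cald1.

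On day 2 the abundant members were lower in 23-CATA. Acta2 was lower by the widest margin (-3.41 ± 0.16, adjusted p = 1.51e-17). Tpm1 was at 98.8, 99.6 and 98.0 FPKM against 226, 221 and 224 (-1.20 ± 0.06, adjusted p = 2.95e-16). Tpm2 was at 24.7, 24.8 and 21.2 FPKM against 50.7, 49.1 and 48.3 (-1.07 ± 0.09, adjusted p = 2.3e-11). Cald1 was at 87.5, 81.8 and 87.1 FPKM against 129, 127 and 133 (-0.62 ± 0.08, adjusted p = 8.99e-08). None of these groups overlapped.

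After day 2 the members parted. Acta2 was not called on day 4 (0.14 ± 0.16, adjusted p = 0.758) and higher on day 6 (0.62 ± 0.16, adjusted p = 0.000625). Tpm1 was called at neither day. Tpm2 stayed lower, at 22.1, 24.5 and 24.3 FPKM against 53.9, 56.8 and 54.4 on day 6 (-1.20 ± 0.09, adjusted p = 7.72e-13). Lmod1 was higher on day 4 (0.56 ± 0.09, adjusted p = 3.39e-05) and day 6 (0.51 ± 0.09, adjusted p = 6.74e-06). Myh11 stood at 0.26, 0.27 and 0.35 FPKM on day 6 against 0.62 to 0.78 (-0.43 ± 0.06, adjusted p = 7.41e-07).

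Compared directly, 23-CATA had 5 members called higher than 23-Tet1 and 1 lower on day 0, none and 6 on day 2, 3 and 4 on day 4, and 4 and 3 on day 6. The shares of all genes called were 64.2%, 67.4%, 74.2% and 65.7%, made up of 32.9%, 30.3%, 27.6% and 31.9% higher and 31.3%, 37.1%, 46.6% and 33.8% lower. On day 4 higher genes made up 37.2% of all calls, and 54% after median-ratio scaling. Acta2 was higher in 23-CATA on days 0, 4 and 6 (0.86, 2.08 and 3.87) and lower on day 2 (-2.22), with an SE of 0.16 each.

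A change of the difference between populations from day 0 was tested as an interaction. Between Tet1-KO and WT it was called for 4 of 8 members on day 2, 4 on day 4 and 2 on day 6, where 21.9%, 7.61% and 17.8% of all genes were called. Between 23-Tet1 and 23-NC it was called for 7 of 9 members on day 6, where 61.4% of all genes were called, and between 23-CATA and 23-NC for 6 of 9, where 63.5% were.

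The adipocyte markers also differed between these populations. Their sum ran from 3609 to 3784 FPKM in 23-NC on day 2, from 2380 to 2608 in 23-Tet1 and from 34001 to 37467 in 23-CATA. On day 6 it ran from 11864 to 13324, from 55905 to 63664 and from 65283 to 66700 in the same order. All 18 adipocyte markers were called higher than in 23-NC in 23-CATA on days 0, 2 and 6, and in 23-Tet1 on day 6. Of all genes, 31.6%, 34.3% and 38% were called higher in 23-CATA on these days, and 36% in 23-Tet1 on day 6. Thus on day 6 both populations had high adipocyte sums, while Acta2 was lower than 23-NC in 23-Tet1 and higher in 23-CATA. The part of the adipocyte genes in the results for the members was not tested.

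Each of 7 members was also set against the paralog that most cells express, as the log2 ratio within a library with 0.1 FPKM added to both. There were 84 such comparisons of 3 against 3 libraries, and an exact two-sided permutation test can then give no p below 0.1, or 0.171 after Benjamini-Hochberg adjustment over the 84. In 49 of them the groups did not overlap, and in 57 with 1 FPKM added in place of 0.1. No share over other gene pairs stands beside this count, so it is not a result about the members. The ratio of Acta2 to Actb, the cytoplasmic beta actin, was -0.18 ± 0.07 in Tet1-KO and -1.38 ± 0.04 in WT on day 0 (SD, n = 3 each). The knockout exceeded WT in this ratio by 1.198, 3.75 and 4.13 on days 0, 2 and 4 with no overlap (exact permutation p = 0.1 each). On day 6 the ratios were -2.28 ± 2.05 and -2.33 ± 0.25 and overlapped (exact permutation p = 1). At that day Actb averaged 1265 FPKM in Tet1-KO and 318 in WT.

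In 23-Tet1 the Acta2 to Actb ratio was below 23-NC by log2 differences of -0.85, -1.36, -2.52 and -4.58 on days 0, 2, 4 and 6, without overlap (exact permutation p = 0.1 each). In 23-CATA it differed by 0.21, -3.11 and 0.24 on days 0, 2 and 4 without overlap, and by -0.04 on day 6 with overlap (exact permutation p = 0.7). Actb averaged 873 FPKM in 23-CATA and 533 in 23-NC at that day. The ratio of Myl9 to Myl12a, a regulatory light chain gene that most cells express, was lower in Tet1-KO by -4.997, -3.54, -3.22 and -4.58 and higher in 23-CATA on day 0 by 3.29, all without overlap. With 1 FPKM added in place of 0.1 these became -4.35, -1.60, -1.47, -2.97 and 2.23, since Myl9 was at or near 0 in several of these groups. Tagln against Tagln2 was higher in Tet1-KO on day 0 (2.69) and in 23-Tet1 on day 6 (1.81). Tpm2 against Tpm4, a non-muscle tropomyosin, was higher in Tet1-KO on day 6 (2.02) and lower in 23-CATA on day 6 (-1.39). In Tet1-KO on day 6 this ratio was 0.90 ± 1.43 (SD), against -1.11 ± 0.24 in WT, without overlap. Its highest library was replicate 2, the one that stands apart.

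The other genes of the contractile apparatus and actin cytoskeleton were 32, of which 29 were tested. In WT 25, 25 and 24 were called lower on days 2, 4 and 6 than on day 0, and none, 1 and 1 higher. Of all genes, 43.2%, 49.2% and 37.4% were called lower. In Tet1-KO against WT 2 were called higher and 2 lower on day 0, 14 and none on day 2, 12 and 1 on day 4, and 11 and 1 on day 6. Of all genes, 5.83%, 16.2%, 9.79% and 15.7% were called higher on these days and 11%, 6.76%, 6.22% and 29.7% lower. Cnn2, the non-muscle relative of Cnn1, averaged 105 FPKM in Tet1-KO against 12.7 in WT on day 2 (2.61). In 23-Tet1 against 23-NC 13 were called higher and 8 lower on day 0 and 5 and 18 on day 6, and in 23-CATA 1 was called higher and 21 lower on day 2. Of all genes, 37.8% were called higher and 23.5% lower in 23-Tet1 on day 0, and 36% and 29% on day 6. For 23-CATA on day 2 the shares were 34.3% and 30.7%. Mylk, the kinase that phosphorylates the regulatory light chain, averaged 3.76 FPKM in 23-Tet1 against 9.2 in 23-NC on day 0 (-1.17) and 61.1 against 11.2 on day 2 (2.24).

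Srf itself, the gene of serum response factor, averaged 18.9 FPKM in Tet1-KO and 9.95 in WT on day 4 (0.73), and 16.6 and 8.24 on day 6 (1.11). Fhl2, an SRF-binding LIM protein, averaged 29 FPKM in Tet1-KO against 4.69 in WT on day 2.

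The transforming growth factor beta pathway, which raises Acta2 in fibroblasts, gave 4 genes called higher and 6 lower in Tet1-KO on day 0 of 22 tested, 10 and 1 on day 2, 6 and none on day 4, and 5 and 4 on day 6. Of all genes, 5.83%, 16.2%, 9.79% and 15.7% were called higher on days 0, 2, 4 and 6. Those called lower were 11%, 6.76%, 6.22% and 29.7%. Thbs1, thrombospondin, averaged 217 FPKM in Tet1-KO against 28.1 in WT on day 0 (2.99). In 23-Tet1 against 23-NC 2 of 23 tested were called higher and 14 lower on day 6, and in 23-CATA 3 and 17. Of all genes, 36% were called higher and 29% lower in 23-Tet1, and 38% and 36.4% in 23-CATA.

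The members did not follow Acta2 to the same degree. Across the 8 group means of the first table, Pearson's r with Acta2 on the log2 scale was 0.972 for Lmod1, 0.934 for Tpm1, 0.924 for Cald1, 0.871 for Tpm2, 0.769 for Tagln, 0.696 for Actg2 and 0.212 for Myl9, where the median of all genes was 0.329. Lmod1 stood at position 22 of 11910 genes, or 45 without Tet1-KO day 6 replicate 2, and the gene most like Acta2 was Cnn2 (0.993), followed by Csf1, Tmtc1, C1qtnf1 and Fbxw9. Without Tet1-KO day 6 replicate 2 the first was Sgce and the next Cnn2 (0.993 and 0.992). Across the 12 group means of the second table, r was 0.932 for Tpm1, 0.805 for Cald1, 0.695 for Myl9, 0.666 for Actg2, 0.465 for Tpm2, 0.430 for Lmod1, -0.519 for Tagln and -0.771 for Myh11, with a median of 0.154 over all genes. The closest genes there were Ccdc103 (0.981), Palld (0.978), Myl12a, Fgd3 and Sri. In the second table Myh11 passed the filter only through 23-Tet1 day 6, where Acta2 was lowest. Myl9 and Actg2 passed only through 23-CATA day 0, where Acta2 was highest. The r of these genes there therefore depends in part on the filter, and most of their values are under 1 FPKM. All values of r are descriptions over groups that share populations and days.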

How the data were processed

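RNA-seq values of 60 samples were used. The deposited values are FPKM, which the authors obtained with STAR 2.4.1a, RSEM and the mm10 genome, per the submitters' processing notes, and are given to 2 decimals in 2 tables that were analysed apart. Gene coordinates are from GENCODE M21 on mm10. Groups were taken from the sample titles, from which the genotype tag differs in 11 samples of 23-Tet1. Whether libraries of a group were grown apart is not given in the sources used here, and p-values cover the spread among these libraries only, which may be technical.

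Genes with at least 1 FPKM in 3 libraries of a table were tested (11911 and 12231) on the log2 scale after adding 1 FPKM, in limma 3.58.1 (R 4.3.3) by lmFit and contrasts.fit, with a trend in eBayes and all groups of a table in 1 model. Benjamini-Hochberg adjustment ran over all genes tested and the threshold was 0.05. The 36 comparisons were 16 between populations, 15 between days and 5 interactions, and the code was tested on simulated data. Differences are printed relative to that of the median gene, and their p-values test the fitted difference. The members and the 8 other gene lists were chosen with earlier results of these data known. All members were named. From the other lists, genes were named among up to 2 rises and 2 falls per comparison of populations, those with the widest log2 difference among called genes whose groups did not overlap and whose higher group averaged at least 5 FPKM, besides Srf, Myocd and paralogs of members. Ratios, motifs and figures used matplotlib 3.10.9, pandas 2.3.3, numpy 2.4.6 and scipy 1.17.1 under Python 3.11.15. Alternatives were another pseudocount (0.1), no filter, quantile normalisation, median-ratio scaling, library weights, a replicate block, the compared groups alone, and leaving out single libraries. Read counts were not used here. The counts of 1 of the lists and 1 gene of another are not reported here.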

Additional observations from a re-analysis of the deposited data

Results flagged for a closer look

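For these members the effect of the population differed between days by an interaction term, a test in limma with Benjamini-Hochberg adjustment over all genes tested. Values are the change of the log2 difference from day 0, relative to the median gene.

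Between Tet1-KO and WT, 4 of 8 members passed at day 2, 4 at day 4 and 2 at day 6, where 21.9%, 7.61% and 17.8% of all genes passed. The difference of Acta2 grew by 3.16 to day 2 (adjusted p = 0.0273) and by 3.34 to day 4 (adjusted p = 0.0497). That of Tpm1 grew by 1.55 (adjusted p = 0.0302) and 2.00 (adjusted p = 0.0272). Cald1 gave 2.34 at day 4 (adjusted p = 0.0426) and 3.15 at day 6 (adjusted p = 0.00808). Tagln, which was higher in the knockout at day 0 and overlapped WT at day 2, gave -2.57 at day 2 (adjusted p = 0.041). Myl9 gave 2.62, 2.83 and 1.19 at days 2, 4 and 6 (adjusted p = 1.45e-05, 8.44e-06 and 0.0266). These positive values of Myl9 are a deficit that narrowed as WT itself went to 1.33 FPKM or less at days 2 and 4.

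Between 23-Tet1 and 23-NC at day 6, 7 of 9 members passed, where 61.4% of all genes did. Acta2 gave -2.48 (adjusted p = 5.88e-11), Tpm1 -1.35 (adjusted p = 3.13e-14), Tpm2 -0.51 (adjusted p = 0.000399), Actg2 -0.67 (adjusted p = 0.00164) and Cald1 -0.35 (adjusted p = 0.00288). Lmod1 gave 1.35 (adjusted p = 5.66e-10) and Myh11 0.48, in the other direction. Myh11 passed the filter on low values only through 23-Tet1 day 6, so it had to differ and its value is a description.

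Between 23-CATA and 23-NC at day 6, 6 of 9 passed, where 63.5% of all genes did. Tpm2 gave -1.41 (adjusted p = 2.29e-11), Lmod1 -0.81 (adjusted p = 5.56e-07), Myh11 -0.49 (adjusted p = 1.38e-06) and Tagln -0.36 (adjusted p = 0.0389). The other 2 of the 6 were Myl9 (-1.88) and Actg2 (-0.61), which passed the filter only through 23-CATA day 0, so that their values are a description. Acta2 was not among the 6.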

How the results depend on the processing

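Counts of members called moved by over 1.5 times as follows, and the cause was not tested. The share of all genes called under each setting is not given beside these counts, so a moved count is not a result about the members. With a pseudocount of 0.1 FPKM the interactions of Tet1-KO with days 2, 4 and 6 gave 2, 1 and 1 members in place of 4, 4 and 2. Tet1-KO day 6 against day 0 gave 3 members in place of 5 with quantile normalisation, with median-ratio scaling and without Tet1-KO day 6 replicate 2, 2 with library weights and 0 with the compared groups alone. 23-Tet1 against 23-NC at day 4 gave 3 in place of 6 with quantile normalisation. With library weights, Tet1-KO against WT gave 6 at day 0 and 8 at day 4, in place of 2 and 5, WT day 6 gave 8 in place of 5, and the interactions of days 2 and 4 gave 7 and 7. With the compared groups alone, Tet1-KO against WT gave 6, 2 and 3 at days 0, 4 and 6, in place of 2, 5 and 5, WT day 6 gave 8, and 23-CATA against 23-NC at day 0 gave 3 in place of 5. Without replicate 2 of Tet1-KO days 2, 4 and 6, Tet1-KO against WT gave 5 at day 0 and 8 at day 4, and the interaction of day 6 gave 4. Leaving out single libraries gave 2 to 6 members at day 2, 2 to 6 at day 4 and 3 to 7 at day 6 for Tet1-KO against WT, 3 to 8 for Tet1-KO day 4 and 3 to 6 for Tet1-KO day 6 against day 0, and 1 to 4, 1 to 5 and 1 to 2 for the 3 interactions. The Tet1-KO interaction count moved for 9 libraries left out at day 2, for 11 at day 4 and for 4 at day 6. It was 1 member without WT day 0 replicate 2 or Tet1-KO day 0 replicate 2 at either of days 2 and 4. Quantile normalisation turned the sign of 5 differences in which 23-CATA had the higher mean FPKM. Against 23-NC, the values fitted after it were -0.079 for Myh11 at day 0 and -0.018 for Cald1 at day 6. Without it, Myh11 averaged 0.303 FPKM in 23-CATA against 0.16 in 23-NC, and Cald1 89.5 against 79.1. Against 23-Tet1, the values fitted after it were -0.13 for Myh11 and -0.12 for Actg2 at day 0, and -0.014 for Tpm1 at day 4. With a pseudocount of 1 in place of 0.1, 29 of the 84 paralog ratios moved by more than the replicate SD, and that of Actg2 to Actg1 in 23-Tet1 against 23-NC at day 0 turned to -0.12. No count moved without the filter on low values. In 30 of 31 comparisons the deviations of same-numbered libraries were not correlated above 0.1 in all replicates (correlations -0.47 to 0.42). By this cutoff numbers were not taken to pair libraries. With the replicate number as a block all 36 counts stayed within 1.5 times, and Tet1-KO against WT gave 3, 6, 7 and 7 members. Members under 1 FPKM rest on few fragments: Myh11 in 33 of 36 libraries of the second table, Myl9 in 33 and Actg2 in 32.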

Other observations

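Markers of other cell types were listed beside the members. Of 24 skeletal and cardiac muscle markers 16 were under 1 FPKM in every library of the first table and 18 in the second, among them Myod1, Myog and Ttn. In Tet1-KO against WT 1, 2 and 3 of the 8 tested were called higher at days 2, 4 and 6 (16.2%, 9.79% and 15.7% of all genes) and none lower, and 1 was called lower at day 0 (11% of all genes). Their sum ran from 45.9 to 97.4 FPKM in Tet1-KO at day 6 and did not exceed 47.3 in the other groups, and its most abundant gene was Tnnc1, a slow troponin. Of 9 pericyte markers 4 were tested in the first table. In Tet1-KO at day 6, 1 was called higher and 1 lower (15.7% and 29.7% of all genes). The pericyte genes Kcnj8, Abcc9 and Higd1b were under 1 FPKM in every library. Of 10 endothelial and blood cell markers 3 were tested in the first table and 4 in the second. All 4 were called lower in 23-Tet1 than in 23-NC at day 0, where 23.5% of all genes were. The sum of the 10 at day 0 ran from 2.03 to 2.96 FPKM in 23-Tet1 and from 17.1 to 20.1 in 23-NC. It was higher in 23-CATA, from 36.8 to 37.4. In the first table it ran from 36.6 to 46.5 FPKM in Tet1-KO and from 6.05 to 7.03 in WT at day 0. The most abundant gene was Cd68, and 6 of the 10 in the first table and 5 in the second were under 1 FPKM in every library.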
